A study of Mus musculus with 8 samples.

Results

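The genes that encode the RNA exosome, the complex that degrades RNA from its 3' end, were examined in round spermatids with and without TDRD6. Members were chosen by name: *Exosc1*, *Exosc2*, *Exosc3*, *Exosc4*, *Exosc5*, *Exosc7*, *Exosc8*, *Exosc9*, *Exosc10* and *Dis3*. All 10 had an entry, as 13 distinct transcripts among the 19077 transcripts and 12200 genes listed. *Exosc6*, the remaining ring subunit, was not analysed here.

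The exosome is a barrel through which single-stranded RNA is threaded. Its ring is built from subunits that resemble bacterial RNase PH but have lost catalysis in mammals (*Exosc4*, *Exosc5*, *Exosc7*, *Exosc8* and *Exosc9* here), and a cap of RNA-binding subunits (*Exosc1*, *Exosc2* and *Exosc3*) sits over the entry. Cutting is done by attached nucleases: DIS3, an exonuclease and endonuclease at the exit, and EXOSC10, an exonuclease found mostly in the nucleus and nucleolus. The complex processes ribosomal and small nuclear RNA precursors, removes nuclear transcripts that fail quality control, and in the cytoplasm finishes mRNAs that have lost their poly(A) tail.

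RNA-seq was performed on 8 libraries from testes of C57BL/6 mice at postnatal day 26, of which 4 were *Tdrd6*-/- and 4 were *Tdrd6*+/-, the latter being the controls. TDRD6 is a tudor domain protein of the chromatoid body, an RNA granule of spermatids, and the comparison asks how mRNA levels differ when it is missing. Both genotypes carry the targeted allele, in which the human surface protein hCD4 is expressed from the *Tdrd6* start codon, and cells were enriched with anti-hCD4 beads, so the preparation holds cells with an active *Tdrd6* locus rather than round spermatids alone. For each transcript the authors deposited 1 FPKM (fragments scaled to transcript length and library size) per genotype, pooled by Cuffdiff over the 4 libraries. Every FPKM below is that pooled value. Values per animal were not analysed here and the authors' own test columns were not used, so no spread, test or p-value is given. The reads behind a value cannot be read from an FPKM, and differences between genotypes are descriptions.

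*Tdrd6* itself had an FPKM of 40.6 in *Tdrd6*+/- and 1.29 in *Tdrd6*-/- round spermatids. Round spermatid markers were found for 9 of 10 genes, and their summed FPKM was 2175 in *Tdrd6*+/- and 1700 in *Tdrd6*-/-. Of these 9, 8 were lower in *Tdrd6*-/- (2 by at least 1.5-fold) and 1, *Spata16*, was higher. All 6 late spermatid markers, such as protamines and transition proteins, were lower in *Tdrd6*-/- (5 of 6 by at least 1.5-fold), with a summed FPKM of 20503 against 5446. The 6 markers of pachytene and diplotene spermatocytes, which come earlier, summed to 1142 in *Tdrd6*+/- and 1275 in *Tdrd6*-/-. Spermatogonial (4 of 5 found), Sertoli (3 of 6), Leydig (5 of 5) and peritubular and vascular (1 of 4) markers summed to at most 26.8 per list in either genotype, with no marker that was found listed at 0, and the 5 blood and immune markers were not analysed here. The germ cell lists therefore differed between the genotypes, and their part in the results below was not tested. In such bulk samples, fewer cells of a type and less RNA per cell cannot be told apart.

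The exosome genes were far from equal in level, and their order was identical in both genotypes. One ring subunit, *Exosc5*, stood far above the others with an FPKM of 723 in *Tdrd6*+/- and 522 in *Tdrd6*-/-. *Exosc8*, another ring subunit, was lowest at 3.39 and 2.66. From highest to lowest the order was *Exosc5*, *Exosc3*, *Exosc10*, *Exosc1*, *Exosc4*, *Exosc9*, *Exosc7*, *Exosc2*, *Dis3* and *Exosc8*, taking for each gene its transcript of the highest mean FPKM. The median of the 10 FPKM values was 15.1 in *Tdrd6*+/- and 13.8 in *Tdrd6*-/-. The proteins of the ring and cap are present in equal number in the complex, whereas the ring mRNAs spanned a 213-fold range of FPKM in *Tdrd6*+/- and a 196-fold range in *Tdrd6*-/-. Apart from *Exosc5*, neighbours in the order differed by 1.05-fold (*Exosc7* over *Exosc2*) to 2.01-fold (*Exosc4* over *Exosc9*) in *Tdrd6*+/-, and the spread that would show which of these neighbours differ is unknown.

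**Figure D1:**
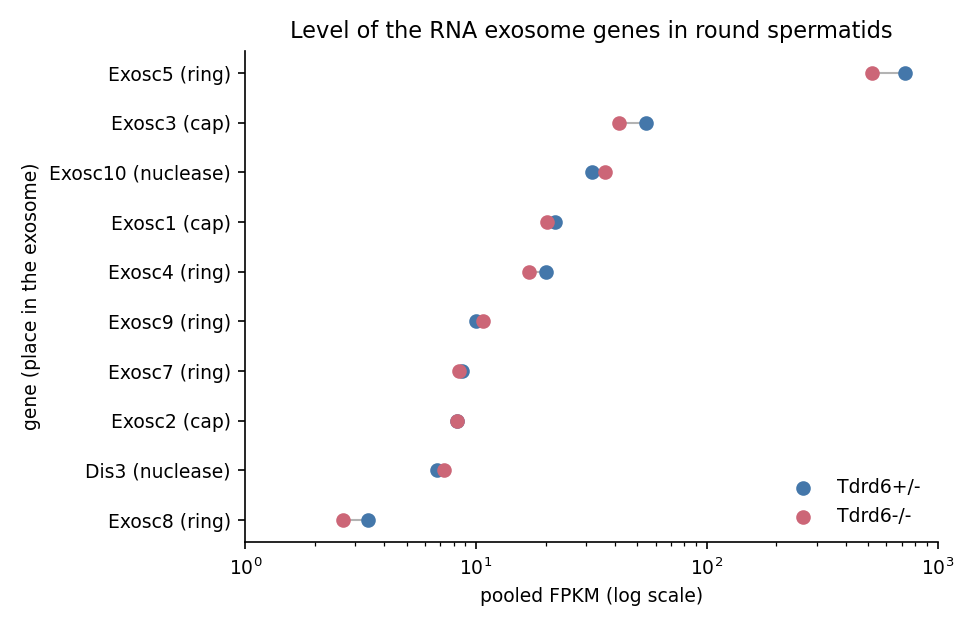
Pooled FPKM (log scale) of the 10 exosome genes in *Tdrd6*+/- (blue) and *Tdrd6*-/- (red) round spermatids, 1 transcript per gene, with a grey line joining the 2 values of a gene. *Exosc5* sits at 723 and 522, and every other gene lies between 2.66 and 54.5.

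No exosome gene differed by 1.5-fold or more between the genotypes in either direction. Among all 12199 genes with a finite ratio, 7.3% were at least 1.5-fold higher in *Tdrd6*-/- and 8.64% at least 1.5-fold lower, so a count of 0 among 10 genes lies close to that background. At a looser limit, 3 members were at least 20% lower in *Tdrd6*-/- (*Exosc5*, *Exosc3* and *Exosc8*) and 0 were at least 25% higher, which are the same fold in each direction. Of all genes, 21.7% were that much lower and 21.8% that much higher. The median log2 ratio of *Tdrd6*-/- over *Tdrd6*+/- was -0.08 over the 10 members and 0.00038 over all genes. By place in the complex, the 3 cap subunits were all below 0 (median -0.13), 4 of the 5 ring subunits were below 0 (median -0.25), and both nucleases were above 0 (median 0.14). For comparison, 49.9% of all genes were below 0. The cap subunit *Exosc2* (-0.0027) and the ring subunit *Exosc7* (-0.04) lay close to 0, and the difference between these groups was not tested.

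Among the cap subunits, which first contact the RNA, *Exosc3* (chr4:45329485-45333501, minus strand, mm9) was the most abundant. Its FPKM was 54.5 in *Tdrd6*+/- and 41.8 in *Tdrd6*-/-, a 1.30-fold lower value in *Tdrd6*-/- and a log2 ratio of -0.38. *Exosc1* (chr19:41997470-42007804, minus strand) had 22.1 and 20.2, a log2 ratio of -0.13. *Exosc2* (chr2:31526235-31536870, plus strand) had 8.28 and 8.27, nearly the same value in both genotypes. The cap genes thus kept their order while the gap between *Exosc3* and *Exosc2* was 6.58-fold in *Tdrd6*+/- and 5.05-fold in *Tdrd6*-/-.

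In the ring, *Exosc5* (chr7:26444172-26453050, plus strand, a transcript of 6 exons and 1030 nt) held the extreme position. Its FPKM of 723 ranked 103rd of the 12199 genes in *Tdrd6*+/-, and its FPKM of 522 ranked 120th in *Tdrd6*-/-. In both genotypes this was above *Pgk2*, the testis-specific phosphoglycerate kinase, which at 565 and 468 was the highest of the round spermatid markers found. *Exosc5* was 1.38-fold lower in *Tdrd6*-/- (log2 ratio -0.47), the lowest ratio among the members. Its level exceeded that of the other ring genes by 35.9-fold (*Exosc4*) to 213-fold (*Exosc8*) in *Tdrd6*+/- and by 30.8-fold to 196-fold in *Tdrd6*-/-.

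The other ring genes had modest levels. *Exosc4* (chr15:76157827-76161107, plus strand) had an FPKM of 20.1 in *Tdrd6*+/- and 16.9 in *Tdrd6*-/-, a log2 ratio of -0.25. *Exosc8* (chr3:54532600-54539315, minus strand) had 3.39 and 2.66, a log2 ratio of -0.35. In both genotypes *Exosc8* lay below the middle of all genes, at the 38.8th and 33.8th percentile of level. *Exosc7* (chr9:123022333-123045247, plus strand) had 8.67 and 8.45, a log2 ratio of -0.04. *Exosc9* (chr3:36451528-36464651, plus strand) had 10.0 and 10.7, a log2 ratio of 0.10, and was the only one of these 5 ring genes with the higher value in *Tdrd6*-/-.

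Both nucleases were listed with several transcripts. *Exosc10* lies on the plus strand at chr4:147932538-147956510 and had 3 listed transcripts. The full-length form *Exosc10-001*, with 25 exons, had an FPKM of 31.8 in *Tdrd6*+/- and 36.3 in *Tdrd6*-/-, a log2 ratio of 0.19 and the highest among the members. *Exosc10-005* lacks exon 19, which is 75 nt long and in frame, and had 2.65 and 4.34. *Exosc10-201* joins exon 19 to a terminal exon of its own (chr4:147950551-147950916), and had 0.513 and 0.863. Both minor forms were therefore higher in *Tdrd6*-/-, by 1.63-fold and 1.68-fold. The full-length form made up 90.9% of the summed *Exosc10* FPKM in *Tdrd6*+/- and 87.5% in *Tdrd6*-/-, while *Exosc10-005* made up 7.59% and 10.5%, and *Exosc10-201* made up 1.47% and 2.08%.

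The junctions that tell the 3 forms apart are shown because the exons around them are shared, so that reads over the junctions and over the exons that differ are what separates the isoforms. The FPKM of an isoform is an estimate of Cuffdiff, which also assigns reads from the shared exons. In each, lower case gives the last 15 bases of the exon before the junction and capitals the first 15 bases of the exon after it, 5' to 3' on the transcript, from the GENCODE M1 transcript sequences of mm9. Exon 18 ends at 147950013, exon 19 runs from 147950259 to 147950333, and exon 20 starts at 147952527.
Exosc10-001, exons 18 and 19: aacccatttcggatgTTCCTGCCTTCTCTG
Exosc10-001, exons 19 and 20: tcgaaaatctatgaaATCAGCAACCGCTGG
Exosc10-005, exons 18 and 19 of its own: aacccatttcggatgATCAGCAACCGCTGG
Exosc10-201, exons 19 and 20 of its own: tcgaaaatctatgaaAGCCCTGGTTTGGTC

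The skipping form thus joins the left side of the first junction to the right side of the second, and *Exosc10-201* keeps the left side of the second and continues differently. Counted as single transcripts, 2 of the 13 member transcripts were at least 1.5-fold higher in *Tdrd6*-/-, both of *Exosc10*, and 0 were at least 1.5-fold lower. Over all distinct transcripts the shares were 11.6% and 11.1%. Both forms lie at low level, and among transcripts with a mean FPKM of 0.5 to 5 the share at least 1.5-fold higher was 15.4% and the share at least 1.5-fold lower 11.9%. Summed over its transcripts, *Exosc10* had an FPKM of 35.0 in *Tdrd6*+/- and 41.5 in *Tdrd6*-/-, a log2 ratio of 0.24.

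*Dis3* lies on the minus strand of chromosome 14 and had 2 listed transcripts. The more abundant was not the full-length form. *Dis3-202* (chr14:99476489-99498959, 20 exons) had an FPKM of 6.77 in *Tdrd6*+/- and 7.25 in *Tdrd6*-/-, a log2 ratio of 0.10. The full-length *Dis3-201* (chr14:99475853-99498989, 21 exons) had 3.01 and 3.30, a log2 ratio of 0.13. The shorter form made up 69.2% of the summed *Dis3* FPKM in *Tdrd6*+/- and 68.7% in *Tdrd6*-/-, so the split between the forms was almost the same in both genotypes. The forms differ in an internal exon, described below, and also in the last exon, which is 832 nt in *Dis3-201* and 196 nt in *Dis3-202*. The estimated split rests on both differences, and the share of *Dis3* mRNA that skips the internal exon was not tested separately.

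*Dis3-202* lacks exon 13 of the full-length form (chr14:99485093-99485177). That exon is 85 nt long, which is no multiple of 3, so the reading frame after the junction is another. The junctions are shown because they carry this difference, again with the exon after the junction in capitals, followed by the last coding bases of *Dis3-202* with its stop codon in capitals.
Dis3-201, exons 12 and 13: atccaacgttgacagGTTGGCATTTTCCTG
Dis3-201, exons 13 and 14: gtcattaattcaaagGCTTCTCTTACGTAC
Dis3-202, exons 12 and 13 of its own: atccaacgttgacagGCTTCTCTTACGTAC
Dis3-202, end of the reading frame: cttctcttacgtacgcggaagcacagaTGA

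The stop codon of *Dis3-202* ends 31 nt after the new junction, in exon 13 of its 20 exons, and 7 exon junctions follow it. Its annotated coding sequence is 1701 nt long, against 2877 nt in *Dis3-201*. A stop codon well before the last exon junction is a feature by which nonsense-mediated mRNA decay (NMD) recognises a transcript, and that of *Dis3-202* lies 1007 nt before it. Among annotated transcripts in the tables, 348 of 18860 (1.85%) had a stop codon more than 50 nt before the last junction, and 1 of the 13 member transcripts did. The median log2 ratio of those 348 was 0.04, beside 0.10 for *Dis3-202* and 0.13 for *Dis3-201*, which lacks the feature. These ratios are not adjusted for transcript length. Less the median of transcripts of similar length (bands given below), *Dis3-202* lay at 0.06 and *Dis3-201* at -0.05, the reverse order. Whether the stop codon plays a part was not tested. *Dis3-202* stood in the authors' table of 3' UTRs under 350 nt, although its whole 3' UTR in GENCODE M1 is 1203 nt, and 871 of the 7644 transcripts listed there that have an annotated length (11.4%) have a whole 3' UTR over 350 nt in that annotation.

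**Figure D2:**
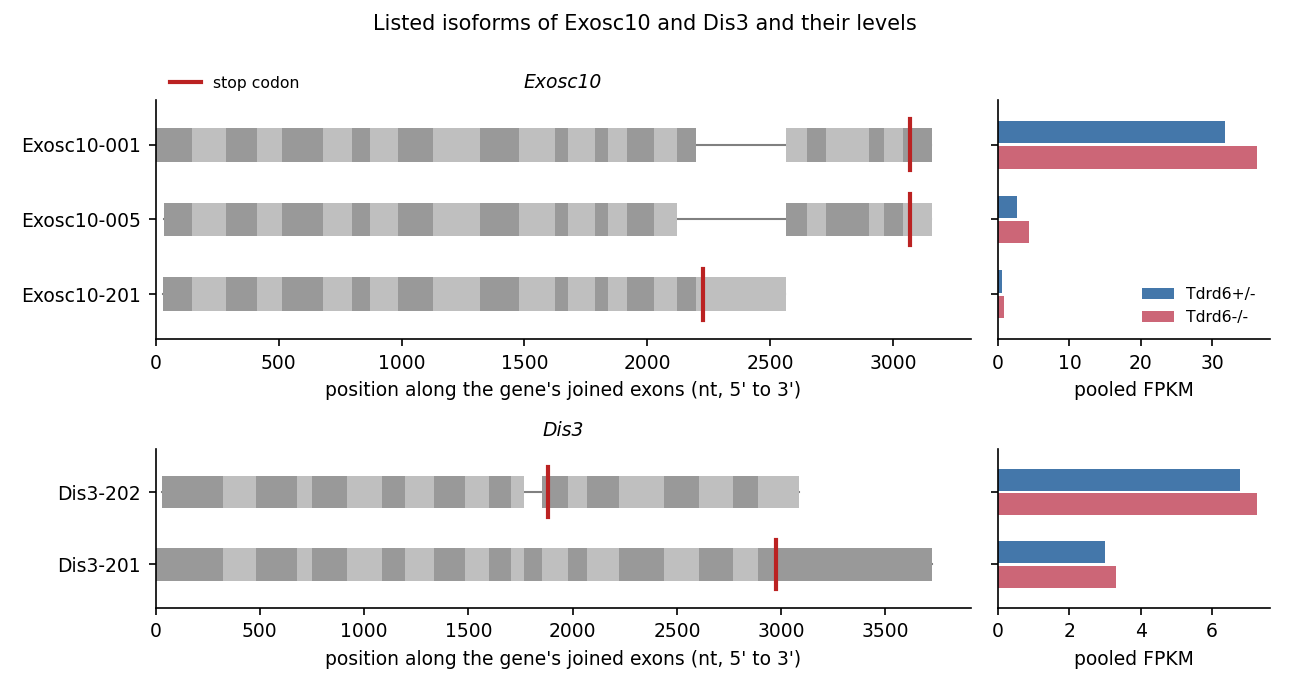
Left, exons of the listed isoforms (alternating greys) along the joined exons of each gene in nt, with a line where an exon of the gene is missing and a red bar at the stop codon. Right, pooled FPKM in *Tdrd6*+/- (blue) and *Tdrd6*-/- (red). *Exosc10-001* dominates at 31.8 and 36.3, whereas for *Dis3* the exon-skipping *Dis3-202*, with its early stop codon, is the higher at 6.77 and 7.25.

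The ratio of a member went along with the length of its transcript. The lowest ratios were those of *Exosc5* (1030 nt), *Exosc3* (1077 nt) and *Exosc8* (1300 nt), and the highest that of *Exosc10* (2790 nt). *Exosc7* departs from this order, since at 1053 nt its log2 ratio was -0.04. So does *Exosc4*, which at 1796 nt had a log2 ratio of -0.25. *Dis3*, the longest at 2971 nt, had 0.10 and lay below *Exosc10*. Across the 10 members Spearman's rho between length and log2 ratio was 0.66 (Pearson's r with log2 length 0.74), and across the 12119 genes with a known length it was 0.48 (r = 0.35). The points share the same pooled libraries, so these coefficients are descriptions. Over all distinct transcripts the median log2 ratio was -0.15 in the band of over 1000 to 2000 nt, where 8 members lie, and 0.04 in the band of over 2000 to 3000 nt, where *Exosc10* and *Dis3* lie.

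Set against the median of its own length band, the median over the members was 0.04 rather than -0.08, with 6 members above their band and 4 below. *Exosc5* remained lowest at -0.32, followed by *Exosc3* at -0.23, *Exosc8* at -0.19 and *Exosc4* at -0.10. *Exosc9* was highest at 0.25. *Exosc1*, *Exosc2* and *Exosc7* lay below 0 as deposited and above their band (0.02, 0.15 and 0.11). *Exosc10* and *Dis3* lay above their band by 0.15 and 0.06. The median of the nucleases therefore lay less far above those of the cap and ring on this scale, at 0.10 against 0.02 and -0.10. Single genes overlapped between these groups, with *Exosc9*, *Exosc2* and *Exosc7* above *Dis3*.

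**Figure D3:**
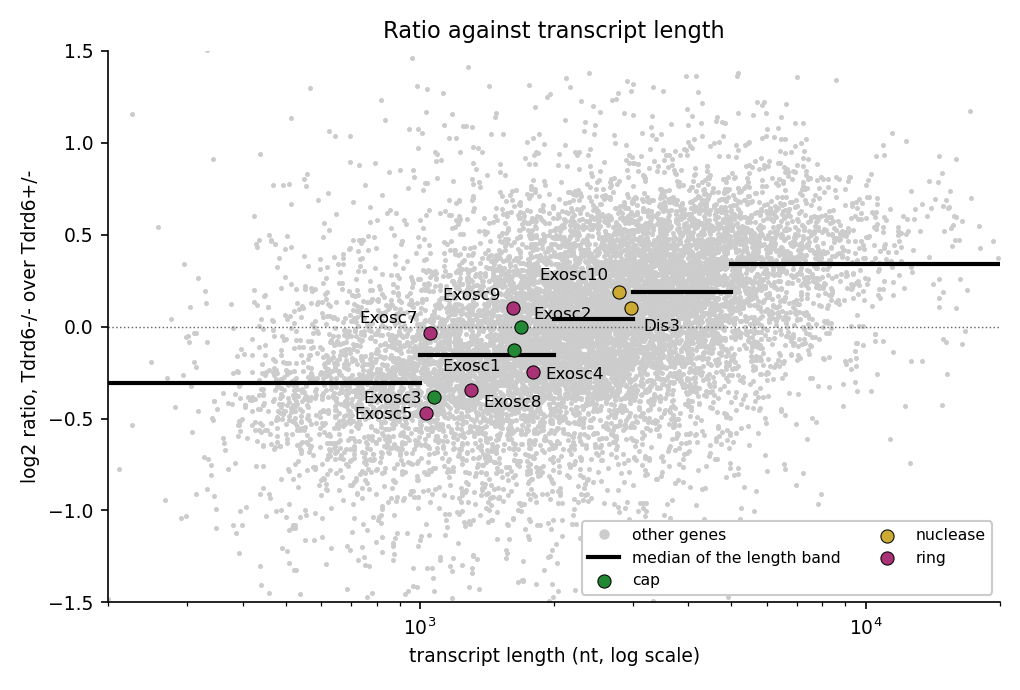
Log2 ratio of *Tdrd6*-/- over *Tdrd6*+/- FPKM against transcript length (nt, log scale) for the exosome genes, coloured by place in the complex, over all other genes in grey, with 177 genes beyond the axes. Black lines give the median of each length band, from -0.31 up to 1000 nt to 0.34 over 5000 nt, and the members lie from -0.47 (*Exosc5*) to 0.19 (*Exosc10*).

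Exons of 5 members overlap those of a gene on the other strand, and the strand setting used in counting is not given in the sources used here, although the library kit keeps strand. The overlap is 380 of 1619 nt in *Exosc9* (with *Ccna2*, a mitotic cyclin), 295 of 2971 nt in *Dis3* (with *Pibf1*), 236 of 1796 nt in *Exosc4* (with *Oplah*), 85 of 1300 nt in *Exosc8* (with *Fam48a*) and 54 of 1687 nt in *Exosc2*. *Fam48a* had an FPKM of 71.3 in *Tdrd6*+/- and 97.3 in *Tdrd6*-/-, well above *Exosc8*, and *Oplah* had 17.5 and 10.9. Values of these 5 members are uncertain to that extent, and the share of such reads was not tested. The transcripts that represent *Exosc5*, *Exosc3*, *Exosc1*, *Exosc7* and *Exosc10* have no such overlap in GENCODE M1. The other listed isoforms of *Exosc10* and *Dis3* were not tested for it.

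DIS3 has paralogues that work outside the nucleus. *Dis3l*, which takes the place of DIS3 on the cytoplasmic exosome, had an FPKM of 63.2 in *Tdrd6*+/- and 79.7 in *Tdrd6*-/-, a 1.26-fold higher value in *Tdrd6*-/-. *Dis3l2*, which degrades uridylated RNA without the exosome, had 6.89 and 5.96. In both genotypes the level of *Dis3l* was thus above that of either *Dis3* transcript and above their sum of 9.78 and 10.6.

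Nuclear cofactors deliver RNA to the exosome, and 14 of the 15 listed were found. Their roles, like those of the DIS3 paralogues, are known mostly from human cells. Of these, 2 were at least 1.5-fold higher in *Tdrd6*-/- and 0 at least 1.5-fold lower, with a median log2 ratio of 0.06, beside 7.3% and 8.64% of all genes. The 2 were *Nvl*, an ATPase that works with the helicase MTR4 in ribosome formation, at 4.92 in *Tdrd6*+/- and 7.99 in *Tdrd6*-/-, and *Zc3h18*, which links the cap-binding complex to the exosome, at 2.60 and 4.16. Both log2 ratios, 0.70 and 0.68, lay under the 1.5-fold limit when the median of the length band was taken off (0.51 and 0.49), and that of *Zc3h18* also did with a pseudocount of 1 (0.52). *Zfc3h1*, the core of the connection that brings polyadenylated nuclear RNA, was 1.27-fold higher at 2.71 and 3.45. Its log2 ratio of 0.35 was 0.0089 when the median of the length band was taken off. *Ncbp1*, the large cap-binding subunit, was 25.1% higher at 111 and 139. *Mphosph6*, which ties MTR4 to the core, was 1.32-fold lower in *Tdrd6*-/- at 3.65 and 2.76. The other 9 had log2 ratios from -0.30 to 0.29, namely the helicase *Skiv2l2* (MTR4), its partners *Rbm7* and *Zcchc8* in the nuclear targeting complex, the poly(A) polymerases *Papd5* and *Papd7* with *Zcchc7*, *C1d*, *Srrt* and *Ncbp2*.

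In the cytoplasm the Ski complex feeds mRNA to the exosome. Its helicase *Skiv2l* had an FPKM of 57.5 in *Tdrd6*+/- and 59.1 in *Tdrd6*-/-. Its scaffold *Ttc37* had 1.59 and 1.89, and *Wdr61*, the third subunit, had 9.95 and 8.47. *Hbs1l*, whose locus also encodes the bridge between the Ski complex and the exosome, had 58.6 and 63.2. None of these 4 was 25% higher or 20% lower in *Tdrd6*-/-, and like the exosome ring the Ski genes had very unequal levels. Of the RNA-binding recruiters, *Khsrp* had 10.1 and 12.2, *Zfp36l1* 1.10 and 1.13, and *Zfp36l2* 0.480 and 0.718, the last lying just below the limit of 1.5-fold. At this low level the log2 ratio of *Zfp36l2*, 0.58, became 0.50 with a pseudocount of 0.1 and 0.22 with 1. Less the median of the length band it was 0.40.

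Genes of the other steps of mRNA decay were set beside the exosome genes. Of 15 deadenylation genes found, 7 were at least 25% higher in *Tdrd6*-/- and 1 at least 20% lower, beside 21.8% and 21.7% of all genes, with a median log2 ratio of 0.20. Of 18 decapping and 5' decay genes, 5 were higher and 1 lower at these limits, the former near the share over all genes, with a median of 0.10. Of 10 NMD factors, 5 were higher and 0 lower, with a median of 0.27. The exosome genes, with 0 higher, 3 lower and a median of -0.08, had the lowest median of these 4 lists and also the shortest transcripts, with a median length of 1621 nt against 2714, 2897 and 4532 nt. Less the median of each length band, the medians were 0.04 for the exosome, 0.16 for deadenylation, 0.03 for decapping and 0.15 for NMD. On that scale the nuclear cofactors (-0.05), the 4 Ski genes (-0.09) and the 2 DIS3 paralogues (-0.12) had lower medians than the exosome genes. The 3 RNA-binding recruiters had a higher one (0.10). The 2 paralogues lay on opposite sides, with *Dis3l* at 0.15 and *Dis3l2* at -0.40. The difference between lists was not tested.

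**Figure D4:**
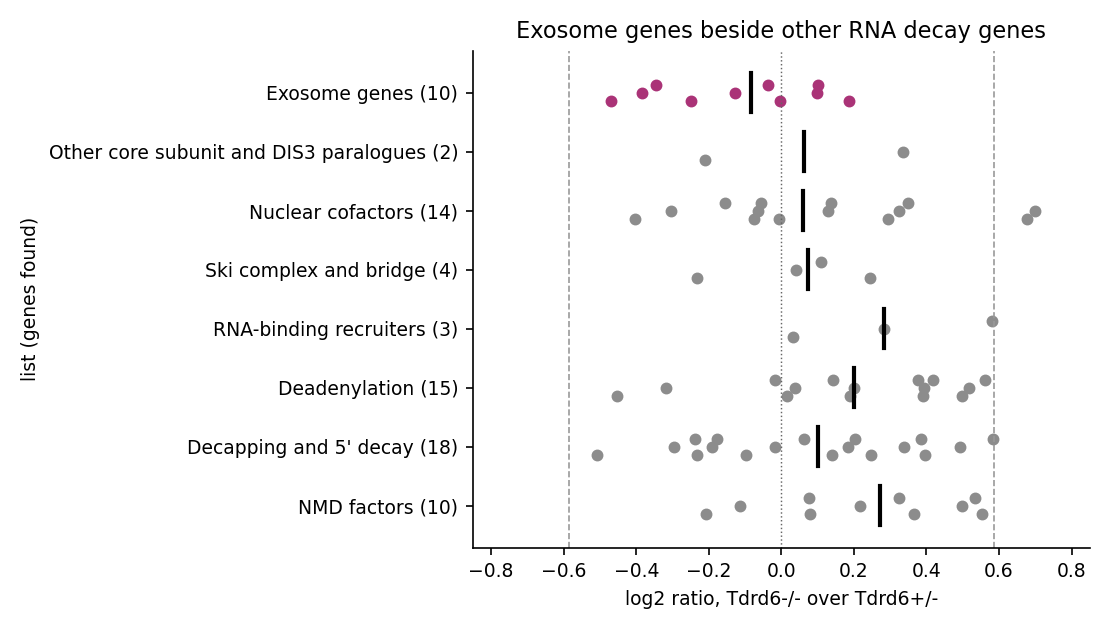
Log2 ratio of *Tdrd6*-/- over *Tdrd6*+/- FPKM for each gene (points, shifted vertically for legibility) and the median (black bar) of the exosome genes and 7 lists of other RNA decay genes, with the number of genes found. Dashed lines mark 1.5-fold, and the 10 exosome genes all lie between them, with a median of -0.08.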

How the data were processed

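RNA-seq of 4 *Tdrd6*-/- and 4 *Tdrd6*+/- libraries was used. Reads had been aligned to mm9 with TopHat2 2.0.9 running Bowtie2, and transcripts quantified with Cuffdiff, and the submitters' processing notes also list Cufflinks 2.1.1. The labels name poly-dT selection and the methods rRNA depletion. The authors deposited FPKM values, 1 per genotype and transcript, in 3 tables by 3' UTR length (under 350 nt, between, and over 1500 nt). Their columns of fold changes, test statistics, p-values and q-values were not used.

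The 19882 entries held 19077 distinct transcripts, each counted once, and the transcript with the highest mean FPKM represented its gene. The log2 of *Tdrd6*-/- over *Tdrd6*+/- was taken with no pseudocount, leaving out 43 transcripts with no finite ratio. Lengths, exons and sequences came from GENCODE M1, an annotation of mm9 that is not the release the authors used, and 217 transcripts had no length there. All members, *Tdrd6* and the cofactors and paralogues found were named. Members and lists were chosen with earlier results of these data known. Python 3.11.15, numpy 2.4.6, pandas 2.3.3, SciPy 1.17.1 and matplotlib 3.10.9 were used. The ratio and fold limit were tested on simulated data.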

Additional observations from a re-analysis of the deposited data

How the results depend on the processing

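The median log2 ratio of the members, -0.08, was -0.10 after centring on the median of all distinct transcripts, -0.037 among transcripts with a mean FPKM of at least 5, -0.0027 over every distinct transcript, -0.094 less the median of the same 3' UTR table and 0.042 less the median of the same length band. With a pseudocount of 0.1 or 1, a mean FPKM of at least 1, FPKM summed per gene, or without transcripts listed in more than 1 table, it stayed at -0.08. The count of members at least 1.5-fold higher, 0, became 2 over every distinct transcript, where single isoforms are counted, and the count lower, 0, became 3 with the looser limit of 20% lower. Under the other alternatives run, a limit of 2-fold included, both stayed at 0. All 10 members kept their sign under both pseudocounts and centring. Less the length band, 3 turned (*Exosc1*, *Exosc2* and *Exosc7*), and against its 3' UTR class only *Exosc7* did (to 0.09). No paired analysis was possible because the tables hold 1 pooled value per genotype, and for the same reason no replicate could be left out. The reads behind a single FPKM cannot be recovered from these tables, so no counting interval is given for low values such as those of *Exosc8* and the minor *Exosc10* isoforms. Less the length band, which for the genes outside the exosome was chosen after seeing the data, *Nvl* and *Zc3h18* lay below 1.5-fold (0.51 and 0.49), as did *Zc3h18* with a pseudocount of 1 (0.52).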
